A study of Arabidopsis thaliana with 18 samples.

Results

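The change in leaf RNA between 12 and 24 h after dexamethasone was followed in an Arabidopsis thaliana line carrying an artificial microRNA (amiRNA) against NAA50. All genes were taken, and the comparison set 3 libraries at 24 h against 3 libraries at 12 h, which were 6 of the 18 libraries of the series. In both lines of the series dexamethasone, a synthetic glucocorticoid, switches on an amiRNA. Its target is NAA50 in the NAA50 line, and a scrambled amiRNA makes the scrambled line the negative control. Plants of both lines were 4 weeks old, were grown with 8 h of light and 16 h of dark a day, and were sprayed with 50 µM dexamethasone. Leaves at position 4 from 4 plants were pooled to 0.4 g for each sample, and each line had 3 samples at 0, 12 and 24 h. The promoter behind each amiRNA, the number of independent transformants and the hour of day at spraying are not stated in the labels. Since the light cycle repeats daily, time since induction and time of day cannot be told apart within the line, and the scrambled line at the same hours (6 libraries) was used to set the values against.

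NAA50 is a catalytic subunit of the N-terminal acetyltransferases, enzymes that move an acetyl group from acetyl-CoA to the first amino acid of a protein as it leaves the ribosome. It sits with the NatA complex, whose catalytic subunit NAA10 and anchoring subunit NAA15 act on a large share of plant proteins. N-terminal acetylation can change the stability, location and partners of a protein. An amiRNA lowers a transcript by guiding its cleavage, so the protein declines later than the RNA.

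Expression is given in CPM, the counts of a gene scaled to a common library size, with library sizes scaled by TMM, a method that lines up the bulk of genes between libraries. A gene was called where the adjusted p was under 0.05 in the quasi-likelihood test of edgeR with Benjamini-Hochberg adjustment over all 18344 genes tested. All adjusted p-values below come from that fit, and changes are log2 values ± SE of 24 h over 12 h. The verbs rose and fell are used of called genes. A level in CPM is not corrected for gene length, so levels are compared between libraries and not between genes.

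Among the genes that rose in the NAA50 line were those of DNA replication and of the secondary cell wall. Among those that fell were genes of the clock, of auxin transport and of flavonol control and the phosphate sensor gene SPX1. Promoters of DNA replication genes often hold the site of E2F factors, which switch on genes for S phase, the phase in which DNA is copied. The 4 words TTTCCCGC, TTTGGCGC, TTTCGCGC and TTTGCCGC were searched on both strands in the 250 bases before the annotated gene start. They stood in 5 of the 17 tested promoters of the list on replication and mitosis (29.4%), namely MCM2, MCM3, MCM4, MCM5 and MCM6, and in 1.43% of 18191 promoters of tested genes. They stood in 2.76% of promoters of genes that rose and in 0.969% of promoters of genes that fell. The words were chosen after values of these genes had been seen, and a match is a description of letters, not of binding. MCM2, MCM3 and MCM5 are shown because they hold the word, and PRL because it rose more than they did and holds none. Windows are from the TAIR10.1 genome (5′ to 3′ on the strand of the gene), with matches in capitals. They lie at chr1:16969964-16970213 (plus strand) for MCM2, chr5:18773707-18773956 (minus) for MCM3, chr2:3527501-3527750 (minus) for MCM5 and chr4:900386-900635 (plus) for PRL.
MCM2: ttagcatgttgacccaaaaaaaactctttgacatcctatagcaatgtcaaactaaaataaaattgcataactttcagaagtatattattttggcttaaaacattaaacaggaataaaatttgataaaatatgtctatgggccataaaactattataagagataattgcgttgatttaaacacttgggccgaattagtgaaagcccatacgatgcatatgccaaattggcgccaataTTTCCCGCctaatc
MCM3: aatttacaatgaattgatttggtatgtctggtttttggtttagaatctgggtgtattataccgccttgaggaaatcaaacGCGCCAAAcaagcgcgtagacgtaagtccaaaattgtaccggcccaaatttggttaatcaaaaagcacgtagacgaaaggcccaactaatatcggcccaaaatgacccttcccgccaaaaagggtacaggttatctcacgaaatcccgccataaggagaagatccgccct
MCM5: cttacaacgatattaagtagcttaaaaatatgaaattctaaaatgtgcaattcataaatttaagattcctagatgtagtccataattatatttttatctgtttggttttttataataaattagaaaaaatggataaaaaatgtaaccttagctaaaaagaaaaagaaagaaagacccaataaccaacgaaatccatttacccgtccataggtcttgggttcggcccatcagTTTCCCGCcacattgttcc
PRL: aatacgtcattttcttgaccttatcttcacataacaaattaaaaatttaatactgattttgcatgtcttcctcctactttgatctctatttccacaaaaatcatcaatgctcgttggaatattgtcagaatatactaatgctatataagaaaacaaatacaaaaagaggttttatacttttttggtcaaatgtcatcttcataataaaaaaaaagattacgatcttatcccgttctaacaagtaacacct
The match began 14 bases before the start of MCM2, 19 before that of MCM5 and 170 before that of MCM3, where it lies on the opposite strand. In MCM4 and MCM6 it began 35 and 46 bases before the start.

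The G-box CACGTG is bound by bZIP factors of the abscisic acid (ABA) response and by bHLH factors of light signalling. It stood in 9.98% of promoters of genes that rose, in 6.84% of promoters of genes that fell and in 7.59% of all. Among the 22 tested ABA and drought output genes it stood in 6 (27.3%). RD20, COR15A, ABI5 and GolS1 hold it and were not called in the NAA50 line. ERD10, COR47, LTI30, P5CS1 and DREB2A rose and do not hold it. The promoters of LEA4-5, a late embryogenesis abundant protein, and of ANNAT1, an annexin, are shown as the output genes that rose and hold it. They lie at chr5:2090431-2090680 (minus) and chr1:13224918-13225167 (plus).
LEA4-5: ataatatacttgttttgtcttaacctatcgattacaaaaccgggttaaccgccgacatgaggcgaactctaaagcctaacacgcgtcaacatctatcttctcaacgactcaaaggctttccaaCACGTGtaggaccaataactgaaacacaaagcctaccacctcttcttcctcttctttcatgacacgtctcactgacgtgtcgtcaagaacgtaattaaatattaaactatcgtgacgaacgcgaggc
ANNAT1: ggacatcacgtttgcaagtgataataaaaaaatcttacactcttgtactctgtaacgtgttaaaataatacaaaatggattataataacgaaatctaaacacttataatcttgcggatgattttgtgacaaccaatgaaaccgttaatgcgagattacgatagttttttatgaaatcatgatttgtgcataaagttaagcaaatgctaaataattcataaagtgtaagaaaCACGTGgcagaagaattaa
Of the other words searched, the evening element AAAATATCT was, for promoters of genes that rose, of genes that fell and of all genes, in 2.49%, 2.74% and 2.51%. The W-box core TTGAC, read by WRKY factors, was in 48.4%, 41.7% and 45%.

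The 18 libraries held 10389333 to 12353330 counts, and a gene with no count in a NAA50 library at 12 or 24 h could still have had up to 0.224 to 0.295 CPM (3 counts, counting error only). Among the 6 NAA50 libraries the first principal component held 58.2% of the variance and placed the 24 h samples between 38.9 and 47.2 and the 12 h samples between -55.7 and -26.9. The second held 16.7% and set sample 3 of 24 h at -39.7 apart from samples 1 and 2 at 25.1 and 17.9. Sample 3 of 12 h lay at -21.1 on it, against 4.46 and 13.2 for its fellows. Nothing in the labels says that samples of a group came from separate sowings, so p-values measure the spread between these leaf pools. In whole leaves, fewer cells of a type and less RNA per cell cannot be told apart. The 10 mesophyll markers had a summed level of 18000 to 22650 CPM at 24 h and 18730 to 25780 CPM at 12 h, with none called. None of the flower and seed markers passed the filter on low counts, and their sum was at most 0.852 CPM at 24 h and 0.471 CPM at 12 h.

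The targeted transcript was already low at 12 h and did not pass the test for a further change. NAA50 (chromosome 5, 3619152 to 3621511) had 2.36, 3.31 and 4.62 CPM at 24 h and 3.75, 4.16 and 3.12 CPM at 12 h, a change of -0.08 ± 0.20 (adjusted p = 0.812). The groups overlap, the 24 h samples spread more widely, and the sign turned without 12 h sample 2 (0.0148) or 24 h sample 1 (0.118). At 0 h the line averaged 12.6 CPM, and the scrambled line averaged 14.0, 15 and 16.9 CPM at 0, 12 and 24 h. NAA50 shares 58 bases on the same strand with its neighbour AT5G11350. Of the 9 tested N-terminal acetyltransferase genes 1 was called, and it fell, while over all genes 9.68% fell and 20.0% were called in either direction. The called gene was AT1G18335, annotated as a member of the acyl-CoA N-acyltransferase superfamily. It had 3.83, 3.88 and 5.07 CPM at 24 h and 6.88, 7.77 and 6.16 CPM at 12 h (-0.69 ± 0.17, adjusted p = 0.0092). AT5G13780, the catalytic subunit NAA10, did not pass (-0.22 ± 0.09, adjusted p = 0.0917), and neither did EMB2753, the anchoring subunit NAA15 (0.12 ± 0.09, adjusted p = 0.368).

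In the NAA50 line 3677 genes (20.0%) were called between the times, 1901 higher (10.4%) and 1776 lower (9.68%) at 24 h. Changes of more than 2-fold were found in 854 that rose and 486 that fell, and of more than 4-fold in 264 and 76. The scrambled line had 5627 calls (30.7%), 2645 higher (14.4%) and 2982 lower (16.3%). The change itself differed between the lines in 1242 genes (6.77%), with 813 (4.43%) more positive and 429 (2.34%) more negative in the NAA50 line. With plain library sizes in place of TMM the splits were 1498 higher and 2272 lower in the NAA50 line, 3632 and 2267 in the scrambled line, and 587 and 1075 for the difference, whose median over all genes moved to -0.147 from 0.0250 on the log2 scale. The number called in the NAA50 line was 2210 without 12 h sample 1, 2111 without 12 h sample 2 and 2390 without 24 h sample 1. By the simpler measure of groups that do not overlap, 3558 genes (19.4%) stood higher and 3891 (21.2%) lower in all 3 libraries at 24 h than in all 3 at 12 h, 40.6% in either direction.

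**Figure D1:**
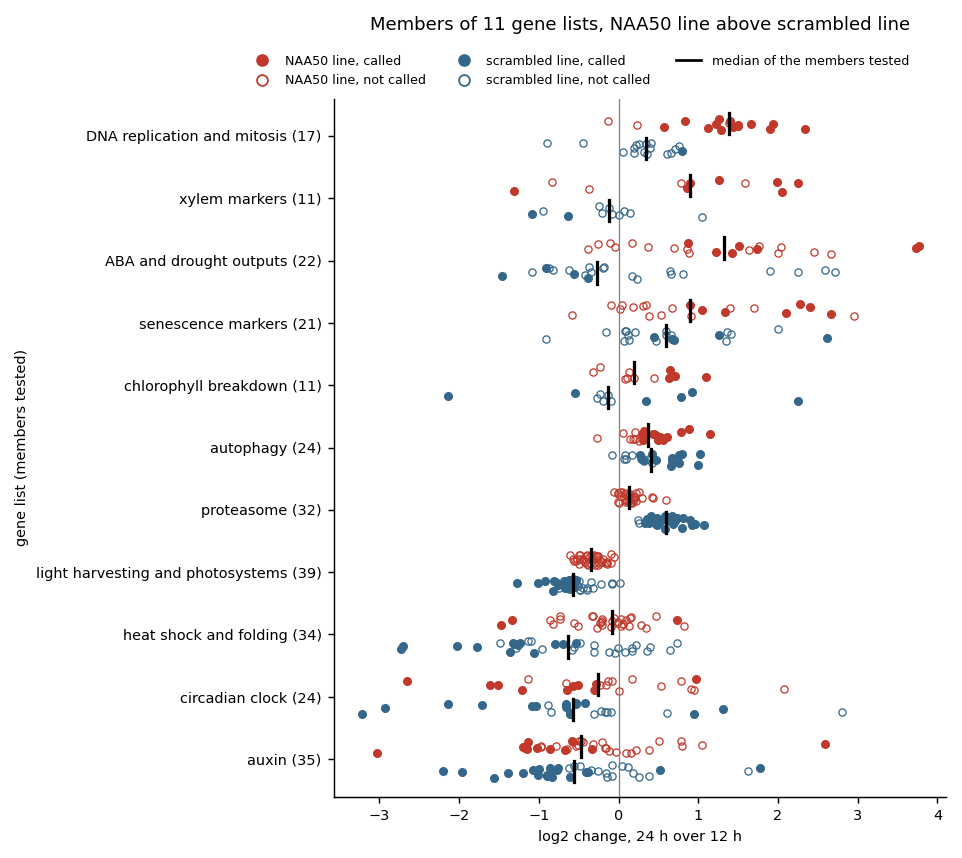
Log2 change of 24 h over 12 h (x axis) for the tested members of 11 gene lists (y axis), with the NAA50 line above the scrambled line in each row; filled points are called genes, open points are not, and black bars are medians. The replication list has its median at 1.38 in the NAA50 line and 0.34 in the scrambled line, and the proteasome list at 0.14 and 0.59.

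DNA replication genes rose together in the NAA50 line. Of 17 tested members of the list on replication and mitosis, 14 rose and 0 fell, with a median change of 1.38, against 1 that rose and 0 that fell in the scrambled line (median 0.34). Over all genes the shares called higher were 10.4% and 14.4%. The summed level of the list was 87.5 to 104 CPM at 0 h, 38.9 to 42.6 CPM at 12 h and 81.4 to 92.8 CPM at 24 h in the NAA50 line. In the scrambled line it was 62.4 to 109 CPM at 24 h and 61.2 to 80.3 CPM at 12 h. The summed levels of the NAA50 line at 24 h and at 12 h do not overlap, while those of the scrambled line do. The 3 members that were not called were the E2F-family factors E2F3 and DEL1 and the mitotic kinase AUR1. The count of 14 was 9 without 12 h sample 2, 8 without 12 h sample 3, 9 without 24 h sample 2 and 7 without both samples numbered 3. In the test of the difference between the lines 1 of the 17 was called more positive and 0 more negative. That count of 1 ran from 0 to 5 over 19 alternatives, and over all genes 4.43% were called more positive.

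The MCM proteins form the ring-shaped helicase that opens DNA at replication origins. MCM2 had 4.72, 5.49 and 6.86 CPM at 24 h and 2.34, 0.941 and 2.14 CPM at 12 h (1.66 ± 0.33, adjusted p = 0.00255). MCM3 had 3.83, 4.64 and 5.52 CPM at 24 h and 1.88, 1.96 and 1.48 CPM at 12 h (1.40 ± 0.27, adjusted p = 0.00212). MCM5 had 4.72, 5.87 and 5.67 CPM at 24 h and 2.5, 1.57 and 1.64 CPM at 12 h (1.5 ± 0.35, adjusted p = 0.00663). In each of these helicase genes every 24 h library stood above every 12 h library. PRL (PROLIFERA), the remaining ring subunit and the list's largest change, had 4.72, 5.77 and 5.0 CPM at 24 h and 0.703, 1.18 and 1.15 CPM at 12 h (2.34 ± 0.31, adjusted p = 0.00012). Its change in the scrambled line was 0.80 (adjusted p = 0.0362), and PRL was the list's 1 member whose difference between the lines passed (1.55 ± 0.41, adjusted p = 0.0359). That call was lost without any 1 of 12 h samples 1, 2 and 3, 24 h samples 1 and 2, and scrambled samples 1 and 2 of 12 h and 1 of 24 h, and also with the replicate block and in the fit to the 12 libraries at 12 and 24 h (11 of 19 alternatives, adjusted p up to 0.0976). PRL shares 437 bases with AT4G02050 on the other strand, and where counting ignores strand such reads cannot be told apart. MCM4 (1.29 ± 0.35) and MCM6 (1.13 ± 0.38) also rose, but MCM4 lost its call without 12 h samples 2 or 3 or 24 h sample 2 (adjusted p up to 0.112) and MCM6 without any 1 of the 6 libraries, with the replicate block, with plain library sizes and without the filter on low counts (up to 0.293). Without both samples numbered 3 MCM5 was not called (adjusted p = 0.0542).

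**Figure D2:**
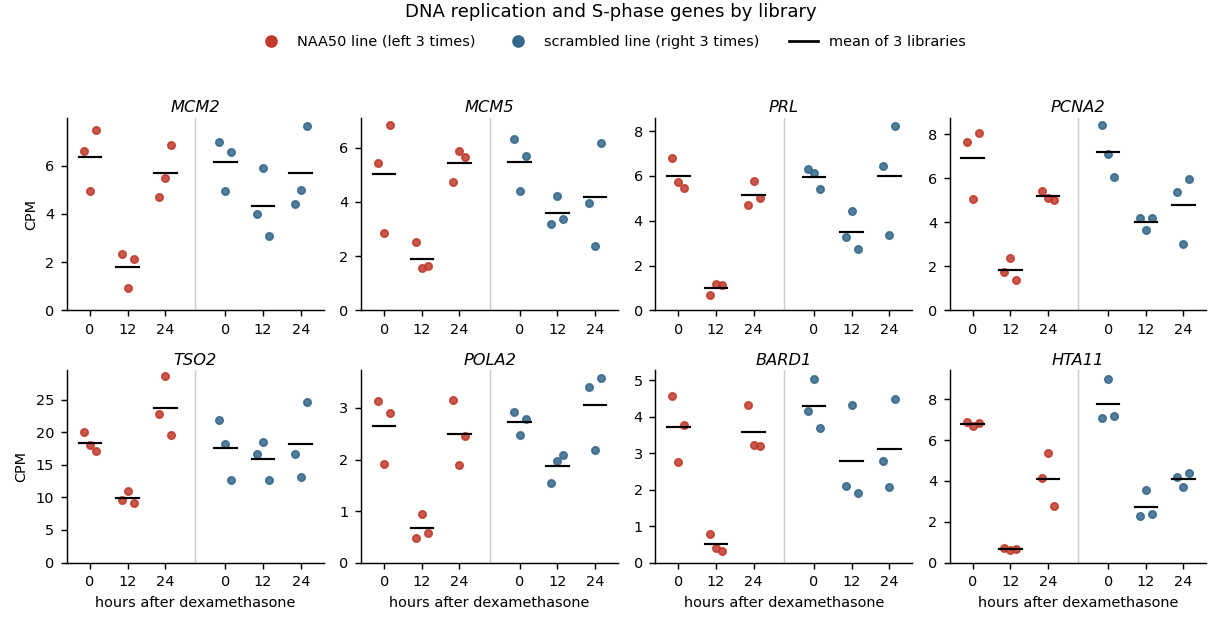
Levels (y axis, CPM) at 0, 12 and 24 h after dexamethasone (x axis). The genes are MCM2, MCM5, PRL, PCNA2, TSO2 and POLA2 of the replication list, the repair gene BARD1 and the histone gene HTA11. Points are libraries, the NAA50 line is on the left in red, the scrambled line on the right in blue, and bars are means of 3. In PRL the NAA50 line lies at 4.72 to 5.77 CPM at 24 h and at 0.703 to 1.18 CPM at 12 h.

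Genes of the replication fork and of nucleotide supply moved with the helicase. PCNA2, a sliding clamp that holds DNA polymerases on the template, had 5.41, 5.11 and 5.0 CPM at 24 h and 1.72, 2.35 and 1.40 CPM at 12 h (1.49 ± 0.27, adjusted p = 0.00116). TSO2, the small subunit of the enzyme that makes deoxyribonucleotides, had 22.8, 28.6 and 19.6 CPM at 24 h and 9.61, 10.9 and 9.12 CPM at 12 h (1.26 ± 0.23, adjusted p = 0.00158). POLA2, a subunit of the polymerase that starts new strands, had 3.15, 1.89 and 2.46 CPM at 24 h and 0.469, 0.941 and 0.575 CPM at 12 h (1.90 ± 0.32, adjusted p = 0.00071). None of the 24 h libraries fell within the 12 h range in these genes. Scrambled plants changed by 0.26, 0.20 and 0.71 in them, and the test between the lines missed the threshold for PCNA2 (1.24 ± 0.37, adjusted p = 0.0537), TSO2 (1.06 ± 0.33, adjusted p = 0.0625) or POLA2 (1.19 ± 0.42, adjusted p = 0.103). PCNA2 shares 279 bases with AT2G29560 on the other strand.

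Cell cycle regulators outside the replication machinery had other counts. Of 18 tested cyclins, kinases and inhibitors 0 rose and 4 fell (median -0.32), which became 2 without 12 h sample 2. The scrambled line likewise had 0 that rose and 4 that fell (median -0.30), the 4 running from 1 to 6 over its alternatives. Over all genes 9.68% fell in the NAA50 line and 16.3% in the scrambled line. The inhibitor KRP2, which binds cyclin-dependent kinases, had 1.08, 2.93 and 1.64 CPM at 24 h and 7.43, 6.98 and 6.74 CPM at 12 h (-1.90 ± 0.31, adjusted p = 0.000579). CYCD5;1, a D-type cyclin, had 3.83, 3.5 and 3.58 CPM at 24 h and 6.57, 6.51 and 6.65 CPM at 12 h (-0.85 ± 0.14, adjusted p = 0.00059). Both groups were separate in these genes. Both also fell in the scrambled line, by 2.24 and 0.46, and the others that fell in the NAA50 line were the inhibitor LGO and the kinase CDC2. LGO was not called without 12 h sample 2, and CDC2 lost its call in 11 of 14 alternatives, the replicate block and each left-out library among them.

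Core histones, which package the new DNA, rose in part. Of 18 tested core histone genes, a list put together after values of these data had been seen, 9 rose and 1 fell (median 0.34), against 6 and 0 in the scrambled line (median 0.37). HTA11, an H2A.Z variant, had 4.13, 5.39 and 2.76 CPM at 24 h and 0.703, 0.628 and 0.657 CPM at 12 h (2.60 ± 0.27, adjusted p = 1.91e-05). Its difference from the scrambled line passed (2.0 ± 0.36, adjusted p = 0.00483). HTB2, an H2B, had 14.5, 15.9 and 15.6 CPM at 24 h and 3.36, 4.31 and 3.61 CPM at 12 h (2.02 ± 0.22, adjusted p = 3.42e-05) and rose by 1.16 in the scrambled line. HTA6, an H2A, rose by 1.8 ± 0.23 in the NAA50 line and by 1.07 in the scrambled line. The histone that fell was HTA9, another H2A.Z gene (-0.39 ± 0.08, adjusted p = 0.00387).

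Of 22 tested genes of DNA repair and checkpoints, also listed after values had been seen, 4 rose and 0 fell (median 0.22). The scrambled line had 2 that rose and 1 that fell (median 0.27). Over all genes the shares called higher were 10.4% in the NAA50 line and 14.4% in the scrambled line. BRCA1 had 2.65, 3.69 and 2.39 CPM at 24 h and 0.547, 0.314 and 0.246 CPM at 12 h (2.93 ± 0.59, adjusted p = 0.00281). Its partner BARD1 had 4.33, 3.22 and 3.21 CPM at 24 h and 0.782, 0.392 and 0.329 CPM at 12 h (2.8 ± 0.42, adjusted p = 0.000319). The 12 h values of both lay near the level of 3 counts. The pair acts in repair of broken DNA by recombination. BARD1 changed by 0.18 in the scrambled line, and the lines differed (2.62 ± 0.55, adjusted p = 0.0121). BRCA1 changed by -0.02 there (difference 2.95 ± 0.81, adjusted p = 0.0403), a call lost in 11 of 19 alternatives, among them the replicate block and each of 12 h samples 1, 2 and 3, 24 h samples 1 and 2 and scrambled samples 1 and 2 at both times left out, with adjusted p up to 0.108. The other genes that rose were the checkpoint kinase WEE1 and the repair gene GR1, each lost without any 1 of the 6 libraries, and GR1 also with DESeq2 and with the replicate block. The count was 2 without any 1 of 12 h samples 1 and 3 and 24 h samples 1, 2 and 3.

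The second group that rose in the NAA50 line makes the secondary cell wall, the layer of cellulose, xylan and lignin that xylem vessels and fibres lay down inside the primary wall. The 3 cellulose synthases of this wall rose, and the primary-wall synthases of the same list did not pass. IRX1 had 16.8, 18.8 and 15.1 CPM at 24 h and 3.91, 4.39 and 4.44 CPM at 12 h (1.99 ± 0.20, adjusted p = 1.64e-05). CESA4 had 19.0, 26.3 and 19.2 CPM at 24 h and 5.55, 4.79 and 5.18 CPM at 12 h (2.05 ± 0.26, adjusted p = 8.86e-05). IRX3 had 13.5, 19.7 and 11.4 CPM at 24 h and 4.14, 1.96 and 3.20 CPM at 12 h (2.25 ± 0.37, adjusted p = 0.000585). The lowest 24 h library lay above the highest 12 h library in each. Their changes in the scrambled line were -0.21, 0.01 and 0.15, and the difference between the lines passed for IRX1 (2.2 ± 0.30, adjusted p = 0.000941), CESA4 (2.04 ± 0.38, adjusted p = 0.00607) and IRX3 (2.11 ± 0.55, adjusted p = 0.0312). For IRX3 it was lost without 12 h samples 2 or 3, 24 h sample 2, scrambled 12 h samples 1 or 2 or scrambled 24 h sample 1 and in the fit to the 12 libraries at 12 and 24 h (adjusted p up to 0.0829). IRX1 shares 562 bases with genes on the other strand. CSI1, which ties cellulose synthases to microtubules, fell (-0.60 ± 0.18, adjusted p = 0.03), a call lost without 12 h samples 1 or 2 or 24 h sample 1 (adjusted p up to 0.128).

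Genes for xylan and wall thickening, a list of 23 tested genes put together after values had been seen, had 14 that rose and 0 that fell (median 1.47), against 1 and 2 in the scrambled line (median 0.05). GAUT12, needed for xylan in the secondary wall, had 4.42, 5.77 and 4.70 CPM at 24 h and 0.938, 0.784 and 1.07 CPM at 12 h (2.4 ± 0.43, adjusted p = 0.00129). IRX9, of the xylan backbone machinery, had 3.34, 6.43 and 4.55 CPM at 24 h and 1.72, 1.33 and 0.575 CPM at 12 h (1.97 ± 0.40, adjusted p = 0.00285). FLA11, a fasciclin-like arabinogalactan protein of secondary walls, had 7.96, 9.46 and 6.86 CPM at 24 h and 2.81, 2.51 and 2.46 CPM at 12 h (1.63 ± 0.25, adjusted p = 0.000406). Both groups stand clear of each other in these genes. CTL2, a chitinase-like protein of the secondary wall, rose by 1.47 ± 0.24 (adjusted p = 0.00054). The lines differed in 5 members (GAUT12, IRX9, CTL2, FLA11 and MYB20), of which FLA11 (1.79 ± 0.37, adjusted p = 0.0103) and the transcription factor MYB20 (1.14 ± 0.24, adjusted p = 0.0126) kept the call in all 19 alternatives. GAUT12 lost it in 8, CTL2 in 7 and IRX9 in 6 of them. MYB20 changed by -0.25 in the NAA50 line (adjusted p = 0.326) and fell by 1.40 in the scrambled line. The 5 became 3 without 12 h sample 1, 2 without 24 h sample 2, 2 without scrambled 12 h sample 1, and 3 without any 1 of scrambled 12 h samples 2 and 3 and scrambled 24 h sample 1. MYB46, a switch above the wall genes, had 1.57, 1.7 and 0.447 CPM at 24 h and 0.391, 0.549 and 0.246 CPM at 12 h and did not pass (1.58 ± 0.55, adjusted p = 0.0557).

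**Figure D3:**
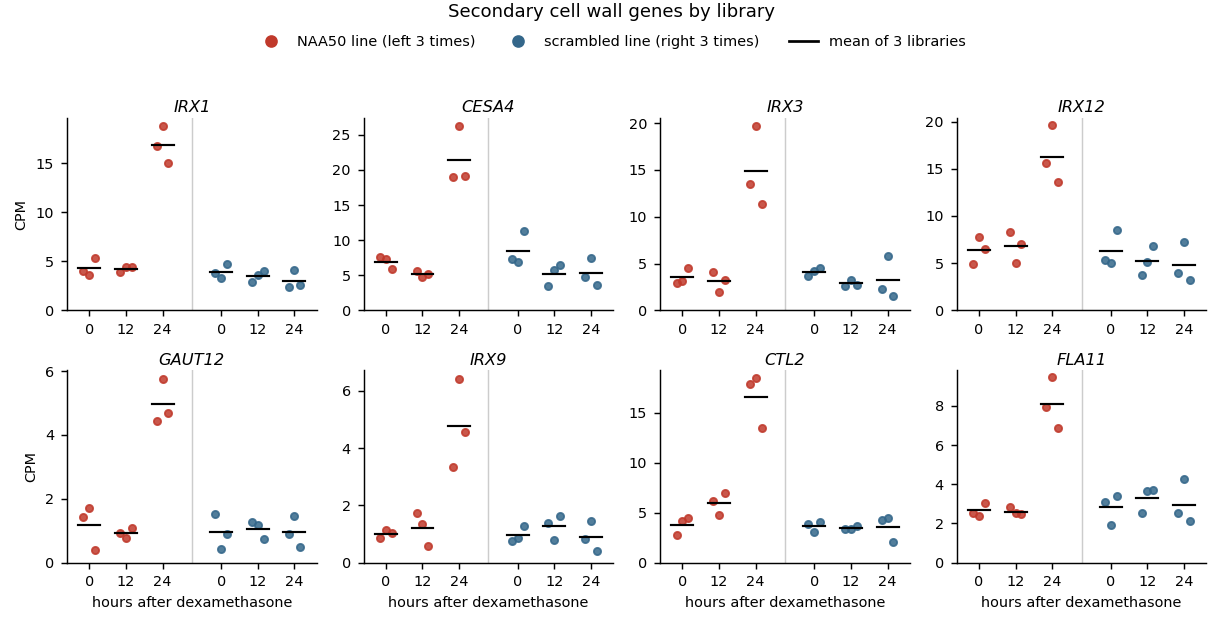
Levels (y axis, CPM) of 8 secondary wall genes at 0, 12 and 24 h after dexamethasone (x axis); points are libraries, the NAA50 line is on the left in red, the scrambled line on the right in blue, and bars are means of 3. IRX1 stands at 15.1 to 18.8 CPM in the NAA50 line at 24 h and at 3.91 to 4.44 CPM at 12 h.

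The xylem marker list shares the cellulose synthases with the wall genes. Of its 11 tested members 6 rose and 1 fell, and its summed level was 134 to 181 CPM at 24 h and 62.2 to 72.7 CPM at 12 h. In the scrambled line it was 39.7 to 82.0 CPM at 24 h and 57.2 to 78.3 CPM at 12 h. The part of xylem cell number in the change of the wall genes was not tested. IRX12, a laccase of lignin formation, had 15.6, 19.6 and 13.6 CPM at 24 h and 8.29, 5.02 and 7.07 CPM at 12 h (1.26 ± 0.30, adjusted p = 0.00749). ACL5, which makes thermospermine and delays xylem differentiation, had 0.786, 2.65 and 1.49 CPM at 24 h and 4.38, 4.08 and 3.78 CPM at 12 h (-1.31 ± 0.26, adjusted p = 0.0027) and fell by 0.64 in the scrambled line. ACL5 averaged 28.8 CPM at 0 h in the NAA50 line. The xylem proteases XCP1 (0.90 ± 0.25, adjusted p = 0.0206) and XCP2 (0.86 ± 0.27, adjusted p = 0.0370) rose. XCP1 was not called without 12 h samples 1, 2 or 3 or 24 h sample 2 (adjusted p up to 0.0841), and XCP2 without any 1 of the libraries but 12 h sample 3 or with plain library sizes (up to 0.127).

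Proteases and nucleases of developmental cell death, the programmed death of vessels and other cells, held 5 that rose and 0 that fell of 8 tested (median 0.75). The count was 3 without 12 h sample 1, 2 without 12 h sample 2 and 3 without either of 24 h samples 2 and 3. The serine carboxypeptidase scpl48 had 54.8, 51.9 and 78.7 CPM at 24 h and 15.9, 14.6 and 17 CPM at 12 h (1.97 ± 0.20, adjusted p = 1.74e-05). It changed by -0.42 in the scrambled line, and the lines differed (2.38 ± 0.28, adjusted p = 0.000393). RD21A, a vacuolar cysteine protease, had 1413, 1412 and 1665 CPM at 24 h and 896, 794 and 1016 CPM at 12 h (0.73 ± 0.13, adjusted p = 0.00122). The times are separate in both genes. BFN1, a nuclease of senescing cells, MC9 and RNS3 were not called.

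Some outputs of ABA and drought signalling rose in the NAA50 line, with wide spread. Of 22 tested members 7 rose and 0 fell (median 1.32), against 0 and 4 in the scrambled line (median -0.27). Over all genes 10.4% rose and 9.68% fell in the NAA50 line, and 14.4% and 16.3% in the scrambled line. The summed level of the list was 6183 to 11030 CPM at 24 h and 3134 to 4019 CPM at 12 h. In the scrambled line it was 1320 to 1689 CPM at 24 h and 1672 to 2288 CPM at 12 h. The count of 7 was 1 without 12 h sample 1, 1 without 12 h sample 2, 4 without 12 h sample 3, 2 without 24 h sample 1 and 1 without 24 h sample 2, and with plain library sizes 5. ANNAT1, whose promoter is shown above, had 230, 233 and 237 CPM at 24 h and 119, 125 and 140 CPM at 12 h (0.87 ± 0.20, adjusted p = 0.00776), with no overlap. The dehydrin ERD10, which protects membranes and proteins in drying cells, had 3122, 3093 and 1750 CPM at 24 h and 897, 667 and 832 CPM at 12 h (1.73 ± 0.48, adjusted p = 0.0186). LEA4-5 had 12.8, 53.0 and 23.9 CPM at 24 h and 1.64, 0.628 and 4.52 CPM at 12 h (3.73 ± 1.13, adjusted p = 0.0297). Both genes were higher in all 24 h libraries, but ERD10 lost its call without 12 h samples 1 or 2 or 24 h samples 1 or 2 (adjusted p up to 0.0793) and LEA4-5 without 12 h samples 1 or 2 or 24 h sample 2 (up to 0.118). The others that rose were the dehydrins COR47 and LTI30, the proline enzyme P5CS1 and the transcription factor DREB2A, and each of these 4 lost its call in 6 of 14 alternatives, without 12 h samples 1 or 2 or 24 h samples 1 or 2 among them. The difference between the lines was called in 3 of the 22, all more positive (DREB2A, RD22 and GolS1), and over all genes in 4.43%. Of the 7 that rose, DREB2A alone had a called difference.

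Of 27 genes of ABA synthesis, perception and phosphatases 4 rose and 2 fell, shares near those of all genes (10.4% and 9.68%). The 4 became 2 without any 1 of 12 h samples 1 and 2 and 24 h sample 2, and the 2 that fell became 1 without 24 h sample 1. PP2CA, a phosphatase that holds ABA signalling down, had 363, 326 and 241 CPM at 24 h and 96.9, 64.3 and 149 CPM at 12 h (1.58 ± 0.25, adjusted p = 0.00052). HAB2, another phosphatase of this kind, had 170, 146 and 136 CPM at 24 h and 106, 92.2 and 114 CPM at 12 h (0.53 ± 0.11, adjusted p = 0.00416). ABA2, an enzyme of ABA synthesis, had 18, 16.4 and 15.1 CPM at 24 h and 30.3, 29.2 and 24.07 CPM at 12 h (-0.76 ± 0.12, adjusted p = 0.000477). All 3 genes also moved the same way in the scrambled line, by 0.80, 0.36 and -0.87. ABA2 shares 470 bases with genes on the other strand.

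Part of the senescence markers rose. Of 21 tested 7 rose and 0 fell in the NAA50 line (median 0.89), against 5 and 0 in the scrambled line (median 0.60). Over all genes the shares called higher were 10.4% and 14.4%. The 5 of the scrambled line became 2 without its 12 h samples 1 or 2 or 24 h sample 2 and 3 without its 24 h sample 1. The 7 became 2 without 12 h sample 1, 3 without 12 h sample 2 and 4 without 24 h sample 1, and without 24 h sample 3 there were 5 that rose and 1 that fell. RNS1, a ribonuclease of ageing and phosphate-starved tissue, had 114, 276 and 110 CPM at 24 h and 24.0, 22.4 and 48.1 CPM at 12 h (2.41 ± 0.46, adjusted p = 0.00181). SAG20 had 103, 109 and 82.2 CPM at 24 h and 43.5, 35.6 and 37.6 CPM at 12 h (1.33 ± 0.17, adjusted p = 7.74e-05). Neither gene overlaps between the times. SAG20 changed by 0.10 in the scrambled line, and the lines differed (1.23 ± 0.23, adjusted p = 0.00619), while the difference did not pass for RNS1 (2.56 ± 0.80, adjusted p = 0.0645). SAG20 was the 1 of the 21 markers with a called difference, and over all genes 4.43% were called more positive. SAG20 averaged 153 CPM at 0 h in the NAA50 line, above its level at both later times.

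Regulators of senescence moved both ways, with 1 that rose and 4 that fell of 12 tested, against 1 and 2 in the scrambled line. Over all genes 10.4% rose and 9.68% fell in the NAA50 line, and 14.4% and 16.3% in the scrambled line. NAC6 (ORE1), a factor that promotes leaf ageing, had 20.3, 23.8 and 54.7 CPM at 24 h and 7.27, 5.88 and 11.7 CPM at 12 h (2.0 ± 0.47, adjusted p = 0.00711). WRKY53, an early senescence factor, had 115, 122 and 94.7 CPM at 24 h and 351, 307 and 302 CPM at 12 h (-1.53 ± 0.38, adjusted p = 0.0106), and fell by 1.38 in the scrambled line. The other regulators that fell were NAP, WRKY54 and WRKY70, each lost without 24 h sample 1 or 2 (adjusted p up to 0.141). The 4 became 2 without 12 h samples 1 or 3 and 1 without 24 h samples 1 or 2. WRKY53 lost its call without both samples numbered 3 (adjusted p = 0.0558), and it shares 341 bases with AT4G23800 on the other strand.

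Some chlorophyll breakdown genes rose and some synthesis genes fell. Of 11 breakdown genes 4 rose and 0 fell in the NAA50 line, against 4 and 2 in the scrambled line. NYE1, which starts the degradation by removing magnesium, had 174, 166 and 159 CPM at 24 h and 109, 94.1 and 119 CPM at 12 h (0.63 ± 0.11, adjusted p = 0.00113). PPH, which removes the phytol tail, had 173, 171 and 185 CPM at 24 h and 103, 91.5 and 129 CPM at 12 h (0.71 ± 0.13, adjusted p = 0.00163). ACD1, which opens the ring, rose by 0.65 ± 0.14 (adjusted p = 0.00496). These genes are separate between the times, and in the scrambled line they rose by 0.35, 0.79 and 0.93. Of 20 synthesis genes 4 fell and 0 rose (median -0.34), a count of 2 without 12 h sample 1 and of 1 without 12 h sample 2 or 24 h sample 1. In the scrambled line 6 of them fell and 0 rose (median -0.29), and the difference between the lines was called more negative in 0. Over all genes 10.4% rose and 9.68% fell in the NAA50 line, and 14.4% and 16.3% in the scrambled line. GUN4, which activates magnesium chelatase, had 38.8, 67.9 and 49.1 CPM at 24 h and 145, 149 and 105 CPM at 12 h (-1.35 ± 0.26, adjusted p = 0.00208), fell by 0.99 in the scrambled line and shares 946 bases with AT3G59410 on the other strand. None of 39 antenna and photosystem genes was called (median -0.34, with 0 in edgeR, 3 lower in DESeq2, 2 lower without 24 h sample 2 and 5 lower with plain library sizes). In the scrambled line 15 of them fell, a count that ran from 1 without scrambled sample 2 of either time to 32 without scrambled 24 h sample 3, with 4 without sample 1 of either time.

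Autophagy genes make products that wrap cell contents for delivery to the vacuole. Of 24 tested 13 rose and 0 fell in the NAA50 line (median 0.37) and 14 and 0 in the scrambled line (median 0.41). Those counts were 6, 7, 8 and 7 in the NAA50 line without 12 h sample 1, 12 h sample 2, 24 h sample 1 and 24 h sample 3, and 8, 9 and 8 in the scrambled line without its 12 h sample 1, 12 h sample 2 and 24 h sample 2. With plain library sizes 8 rose in the NAA50 line. Over all genes 10.4% rose in the NAA50 line and 14.4% in the scrambled line. G18F (ATG18F) had 70.4, 63.7 and 71.4 CPM at 24 h and 39.0, 37.5 and 43.0 CPM at 12 h (0.78 ± 0.13, adjusted p = 0.000578). ATG8E, a ubiquitin-like protein of the forming membrane, had 29.0, 28.2 and 40.4 CPM at 24 h and 16.0, 13.1 and 23.7 CPM at 12 h (0.89 ± 0.20, adjusted p = 0.00613). G18F changed by 0.07 in the scrambled line and ATG8E rose by 0.77 there.

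The proteasome, which degrades tagged proteins, showed a gap between the lines in counts but not in the test of the difference. Of 32 subunit genes 0 were called in the NAA50 line (median 0.14) and 30 rose in the scrambled line (median 0.59). The scrambled count was 9 and 17 without its 12 h samples 1 and 2, and 18 and 10 without its 24 h samples 1 and 2. RPT3, an ATPase of the cap, had 233, 196 and 182 CPM at 24 h and 134, 118 and 151 CPM at 12 h in the NAA50 line (0.60 ± 0.22, adjusted p = 0.0628), with no overlap, and rose by 0.92 in the scrambled line. No proteasome gene was called for the difference between the lines (median -0.42), although 4 were lower without scrambled 24 h sample 3 and 1 with plain library sizes.

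The circadian clock, a loop of transcription factors with a daily rhythm, moved in both lines. Of 24 tested clock genes 1 rose and 9 fell in the NAA50 line (median -0.26), against 2 and 13 in the scrambled line (median -0.57). The counts were 0 and 6 without 12 h sample 1 of the NAA50 line. Members of the group of morning MYB and LNK genes were 6 of the 9 that fell. CCA1, a morning MYB factor, had 343, 350 and 376 CPM at 24 h and 581, 560 and 527 CPM at 12 h (-0.64 ± 0.10, adjusted p = 0.000288), and its partner LHY had 543, 498 and 508 CPM at 24 h and 651, 658 and 594 CPM at 12 h (-0.30 ± 0.10, adjusted p = 0.0401). RVE1, which ties the clock to auxin, had 13.5, 14.9 and 15.1 CPM at 24 h and 43.3, 49.4 and 39.8 CPM at 12 h (-1.61 ± 0.16, adjusted p = 1.74e-05). PRR9, a repressor of the morning genes, had 29.7, 31.4 and 34.4 CPM at 24 h and 99.5, 83.3 and 90.7 CPM at 12 h (-1.52 ± 0.11, adjusted p = 1.42e-06). In these genes the times do not overlap. EPR1 fell by 2.65 ± 0.43, RVE8 by 0.57 ± 0.11 and AT3G54500 (LNK2) by 0.51 ± 0.14. EPR1 has a near-identical copy, AT3G10113, so its reads may be split. LHY lost its call in 9 of 14 alternatives, among them 12 h samples 1 or 2 and 24 h samples 1, 2 or 3 left out and the replicate block (adjusted p up to 0.135), and AT3G54500 lost it without 12 h samples 1 or 2 or 24 h sample 1 (up to 0.0705).

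Among the evening genes GI, a large protein of photoperiod and clock timing, had 143, 129 and 97.8 CPM at 24 h and 302, 286 and 265 CPM at 12 h (-1.21 ± 0.14, adjusted p = 3.62e-05). ZTL, a light-sensing F-box protein that works with GI, fell by 0.29 ± 0.09 (adjusted p = 0.027), a call lost without 12 h samples 1 or 2 or 24 h samples 2 or 3 (adjusted p up to 0.118). TOC1, an evening repressor, was the clock gene that rose, with 41.6, 39.8 and 29.8 CPM at 24 h and 15.9, 19.3 and 21.3 CPM at 12 h (0.98 ± 0.24, adjusted p = 0.0107). TOC1 was not called without 12 h sample 1 (adjusted p = 0.0571). The scrambled line showed like changes in GI (-1.71), ZTL (-0.42) and TOC1 (0.95). Members that did not pass were LCL1 (-0.31), RVE2 (0.91), AT5G64170 (LNK1, -0.08), AT3G12320 (LNK3, -0.16), PRR7 (-0.24), PRR5 (0.79), PRR3 (0.53), ELF3 (-0.14), ELF4 (2.08), PCL1 (-0.66), BOA (0.94), LKP2 (0.01), TCP11 (0.16) and JMJD5 (-1.14). ELF4 was at or below 1.04 CPM in all 6 libraries, and the other strand holds 1507 bases of overlap at PCL1 and 1896 at BOA.

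The clock change was smaller in the NAA50 line at 4 genes. RVE1 had 16.1 CPM on average at 24 h and 150 CPM at 12 h in the scrambled line, a change of -3.22, and the lines differed by 1.61 ± 0.23 (adjusted p = 0.00128). AT3G12320 differed by 0.88 ± 0.17 (adjusted p = 0.00661), PRR9 by 0.63 ± 0.15 (adjusted p = 0.0207) and AT5G64170 by 0.45 ± 0.12 (adjusted p = 0.0312). The count was 2 without any 1 of NAA50 12 h sample 2, scrambled 12 h sample 1 and scrambled 24 h samples 1 and 2, and 2 with plain library sizes. AT5G64170 lost its call in 12 of 19 alternatives and PRR9 in 6. RVE1 and AT3G12320 kept their calls in all 19 alternatives. Of 9 output genes 4 fell in the NAA50 line, a count of 2 without 12 h sample 2 or 24 h sample 1. BBX18, a B-box factor, had 16.7, 19.7 and 18.19 CPM at 24 h and 47.8, 50.8 and 45.3 CPM at 12 h (-1.40 ± 0.16, adjusted p = 5.31e-05), and BBX19 fell by 1.08 ± 0.13.

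**Figure D4:**
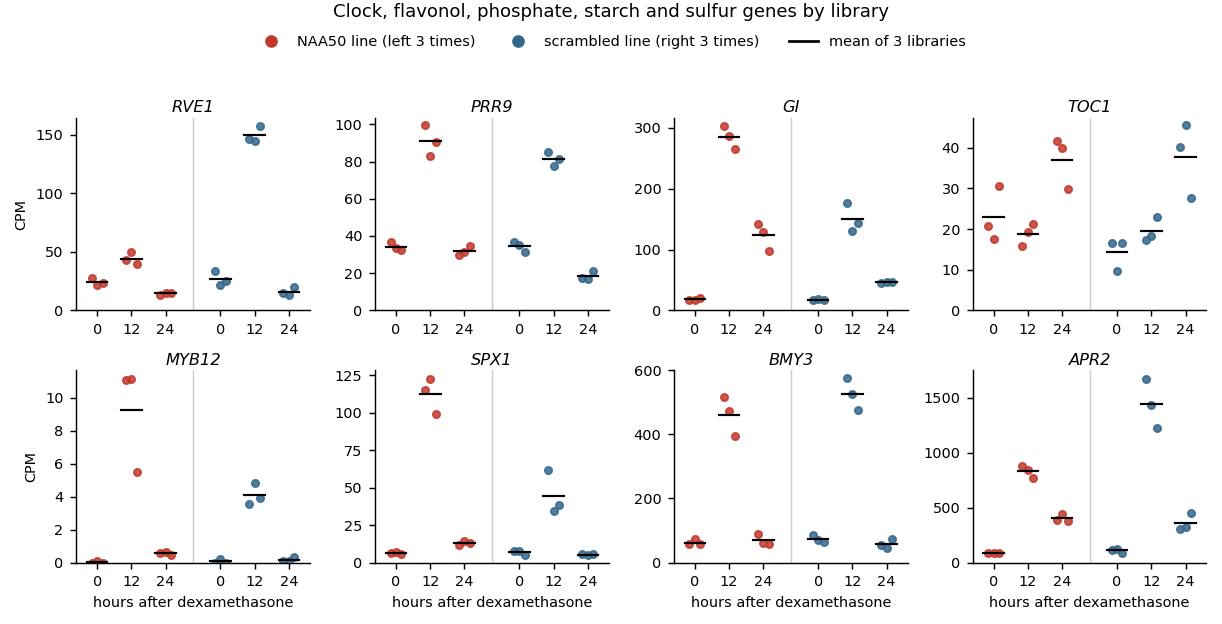
Levels (y axis, CPM) of 4 clock genes, MYB12, SPX1, BMY3 and APR2 at 0, 12 and 24 h after dexamethasone (x axis); points are libraries, the NAA50 line is on the left in red, the scrambled line on the right in blue, and bars are means of 3. RVE1 reaches 39.8 to 49.4 CPM at 12 h in the NAA50 line, with a mean of 150 CPM in the scrambled line.

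Auxin genes that were called mostly fell. Of 35 tested 1 rose and 10 fell in the NAA50 line (median -0.47), against 2 and 18 in the scrambled line (median -0.56). The counts were 0 and 8 without 12 h sample 1, 0 and 7 without 12 h sample 2 and 0 and 9 without 24 h sample 3. PIN3, a carrier that moves auxin out of cells, had 239, 248 and 188 CPM at 24 h and 485, 462 and 424 CPM at 12 h (-1.02 ± 0.12, adjusted p = 5.27e-05). PIN7, of the same family, had 50.8, 72.3 and 63.6 CPM at 24 h and 165, 153 and 112 CPM at 12 h (-1.20 ± 0.18, adjusted p = 0.000256). IAA7, a repressor that auxin removes, had 39.7, 54.2 and 42.1 CPM at 24 h and 112, 101 and 94.1 CPM at 12 h (-1.18 ± 0.14, adjusted p = 4.78e-05). All 24 h libraries lay below all 12 h libraries in these genes, which fell by 0.86, 1.0 and 0.83 in the scrambled line. The gene that rose was GH3.3, which conjugates auxin to amino acids. It lost its call in 7 of 14 alternatives, among them the replicate block, each 12 h sample and 24 h sample 3 left out (adjusted p up to 0.546).

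The flavonoid list split. Of 23 tested genes 5 rose and 6 fell in the NAA50 line, and 0 and 12 in the scrambled line. Those that rose were the entry enzymes PAL1, PAL4, C4H, 4CL1 and 4CL2, which also feed lignin, and those that fell held the flavonol switches. MYB12 had 0.59, 0.662 and 0.447 CPM at 24 h and 11.1, 11.1 and 5.50 CPM at 12 h (-4.02 ± 0.43, adjusted p = 2.53e-05). UGT78D2, which adds glucose to flavonols and anthocyanins, had 52.2, 46.6 and 37.4 CPM at 24 h and 154, 142 and 115 CPM at 12 h (-1.60 ± 0.15, adjusted p = 1.13e-05). MYBL2, a repressor of anthocyanin genes, fell by 2.4 ± 0.28 and MYB111, a relative of MYB12, by 5.44 ± 0.80. All 4 fell in the scrambled line too, by 4.47, 2.13, 1.62 and 5.35. At 0 h MYB12 averaged 0.0318 CPM in the NAA50 line. The change was more positive in the NAA50 line for PAL1 (1.58), PAL4 (2.2), C4H (0.89), 4CL1 (1.45), 4CL2 (1.35) and TT5 (1.33), and in none more negative. The call of 4CL2 was lost in 13 of 19 alternatives and that of TT5 in 7. In the NAA50 line alone PAL1 was not called without 12 h samples 1 or 3 or 24 h sample 2, and 4CL2 without 12 h sample 2 or 24 h samples 1 or 3. More negative genes of the list numbered 2 without 24 h sample 3 and 1 without scrambled 24 h sample 2.

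SPX1, SRG3 and BMY3 were among the named genes with the largest decreases. No list of phosphate genes was counted. Of 27 tested starch and sucrose genes 3 rose and 3 fell in the NAA50 line, shares near those of all genes (10.4% and 9.68%). SPX1, a phosphate sensor whose RNA is made in low phosphate, had 11.8, 14.3 and 13.1 CPM at 24 h and 115, 123 and 99.4 CPM at 12 h (-3.10 ± 0.21, adjusted p = 9.55e-07). SRG3, a glycerophosphodiester phosphodiesterase, had 3.54, 5.68 and 4.70 CPM at 24 h and 44.6, 48.8 and 29.2 CPM at 12 h (-3.13 ± 0.31, adjusted p = 1.64e-05) and shares 681 bases with the other strand. BMY3, a beta-amylase, had 88.9, 62.1 and 56.6 CPM at 24 h and 515, 472 and 395 CPM at 12 h (-2.74 ± 0.21, adjusted p = 2.48e-06). SPX1, SRG3 and BMY3 also fell in the scrambled line, by 3.08, 4.17 and 3.17, and the test between the lines missed the threshold. SUS1, which splits sucrose, rose in both lines, with 176, 244 and 314 CPM at 24 h and 48.1, 26.0 and 69.8 CPM at 12 h in the NAA50 line (2.35 ± 0.41, adjusted p = 0.00101).

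APR2 and APR3, which reduce sulfate, fell in both lines. APR2 had 390, 444 and 375 CPM at 24 h and 881, 841 and 769 CPM at 12 h (-1.04 ± 0.16, adjusted p = 0.000394), and changed by -1.99 in the scrambled line, where its 12 h samples had 1671, 1432 and 1219 CPM. The lines differed at APR2 (0.95 ± 0.23, adjusted p = 0.0212), a call lost without NAA50 12 h sample 3, NAA50 24 h sample 2, scrambled 12 h sample 1 or scrambled 24 h samples 1 or 2 (adjusted p up to 0.0658). GSR2, a cytosolic glutamine synthetase, rose, with 1841, 1720 and 1373 CPM at 24 h and 924, 1059 and 857 CPM at 12 h (0.80 ± 0.13, adjusted p = 0.000723), while it changed by 0.10 in the scrambled line. The difference for GSR2 (0.70, adjusted p = 0.0367) lost its call in 10 of 19 alternatives, plain library sizes and no filter on low counts among them. Over the 29 nitrogen and sulfur genes tested 5 rose and 7 fell, with 3 and 5 without 12 h sample 1, 3 and 6 without 12 h sample 2, 5 and 4 without 24 h sample 1 and 4 and 4 without 24 h sample 2. In the scrambled line 0 of them rose and 8 fell. Over all genes 10.4% rose and 9.68% fell in the NAA50 line, and 14.4% and 16.3% in the scrambled line. APR2 shares 1007 bases with the other strand.

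Heat shock and folding genes had a median change of -0.09 in the NAA50 line, while the scrambled line had 13 that fell of 34 (median -0.64). In the NAA50 line 1 rose and 2 fell, and the 2 became 1 without any 1 of 12 h samples 1 and 2 and 24 h samples 2 and 3. HSF1, a heat shock factor, had 8.85, 8.42 and 6.19 CPM at 24 h and 4.14, 4.86 and 5.09 CPM at 12 h (0.73 ± 0.17, adjusted p = 0.00674). HSFA7A, another factor of the family, had 1.28, 1.04 and 1.57 CPM at 24 h and 3.91, 2.82 and 4.27 CPM at 12 h (-1.48 ± 0.36, adjusted p = 0.00896), and fell by 2.70 in scrambled plants. The lines differed at 6 genes, all more positive in the NAA50 line (HSF1, HSFA2, HSFB2A, AT-HSFB2B, HSP81-2 and HSP81-3). The call of HSF1 (adjusted p = 0.0462) was lost in 14 of 19 alternatives, among them DESeq2, the replicate block, plain library sizes and no filter on low counts, that of HSP81-2 in 11 and that of HSP81-3 in 2. The count of 6 was 3 without NAA50 24 h sample 2 or scrambled 12 h sample 1 and 10 without NAA50 24 h sample 3.

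The largest changes by the naming rule are given with their annotation. AT2G44240, annotated with a NEP-interacting domain, had 34.8, 7.66 and 21.9 CPM at 24 h and 0.860, 0.863 and 0.657 CPM at 12 h (4.73 ± 0.73, adjusted p = 0.000381). EXLA1, an expansin-like wall protein, had 35.2, 38.8 and 32.3 CPM at 24 h and 2.03, 1.73 and 3.53 CPM at 12 h (3.86 ± 0.47, adjusted p = 6.86e-05), and rose by 3.51 in the scrambled line. AT4G33905, of the peroxisomal membrane 22 kDa family, had 37.3, 37.7 and 23.9 CPM at 24 h and 1.95, 0.863 and 3.45 CPM at 12 h (3.98 ± 0.67, adjusted p = 0.000736). All 24 h libraries were above all 12 h libraries in these genes. GLIP2, a GDSL lipase of defence, rose by 3.79 ± 0.42 (adjusted p = 0.000811) and had no count in any scrambled library. AT2G28140 rose by 3.79 ± 0.38, CSLG2, a cellulose synthase-like protein, by 3.80 ± 0.69, and AT5G05220 by 4.05 ± 1.13. AT1G72760, annotated as a protein kinase, rose by 5.17 ± 1.1 with no count in 2 of the 12 h libraries, and was not called by DESeq2 (adjusted p = 0.0661). KTI1, a trypsin inhibitor, had 18.3, 15.1 and 215 CPM at 24 h and 3.44, 1.33 and 6.82 CPM at 12 h (4.43 ± 1.31, adjusted p = 0.0258), and its call was lost without 24 h sample 3 or 12 h samples 1 or 2 (adjusted p up to 0.234). AT5G05220 lost its call without 12 h samples 1 or 2 or 24 h sample 2 (adjusted p up to 0.0874).

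Among the largest decreases CGA1, a GATA factor that promotes chloroplast development, had 1.57, 1.04 and 2.91 CPM at 24 h and 15.9, 19.1 and 10.7 CPM at 12 h (-3.0 ± 0.39, adjusted p = 9.6e-05). BEE1, a bHLH factor of brassinosteroid growth responses, had 0.983, 1.42 and 0.895 CPM at 24 h and 9.93, 8.24 and 7.07 CPM at 12 h (-2.94 ± 0.48, adjusted p = 0.000587). ABCG27, a membrane transporter, had 0.688, 1.7 and 1.42 CPM at 24 h and 8.75, 10.4 and 10.7 CPM at 12 h (-2.94 ± 0.29, adjusted p = 1.6e-05). Each was lower in all 24 h libraries, and in the scrambled line they fell by 2.2, 1.60 and 2.09. The other decreases named by the rule were RTFL5 (-3.68 ± 0.53), AT5G42760 (-3.03 ± 0.26), AT5G22580 (-2.89 ± 0.58) and AT3G09450 (-2.74 ± 0.34), beside MYB12, SPX1 and SRG3 above. AT5G42760 shares 602 bases with the other strand.

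**Figure D5:**
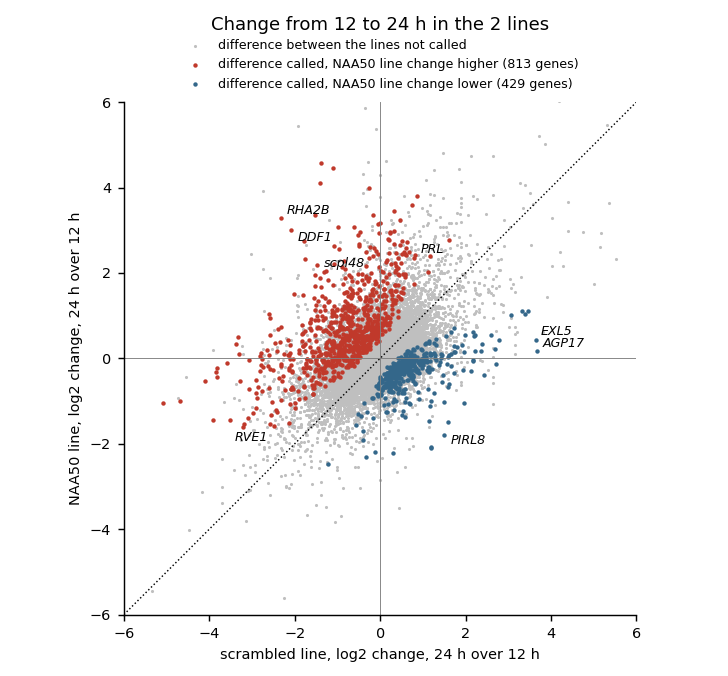
Log2 change of 24 h over 12 h in the NAA50 line (y axis) against that in the scrambled line (x axis) for 18335 genes, with 9 more outside the axes; red marks the 813 genes whose change was called more positive in the NAA50 line, blue the 429 called more negative, and the dotted line marks equal change. RHA2B lies at 3.28 on the y axis and -2.33 on the x axis.

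The lines shared part of their changes. Of the 3677 genes called in the NAA50 line 1672 (45.5%) were also called in the scrambled line, where they made up 29.7% of the 5627. The same direction was found for 1551 of them, 615 higher and 936 lower, and the opposite direction for 121. The 2 comparisons share no library. The difference between the lines was called for 604 of the 3677 (16.4%), among them 397 that rose and changed more positively and 155 that fell and changed more negatively in the NAA50 line.

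The genes with the largest positive difference rose in the NAA50 line and fell, or did not pass, in the scrambled line. RHA2B, a RING finger ubiquitin ligase of ABA signalling, had 19.5, 20.0 and 9.62 CPM at 24 h and 1.72, 2.27 and 0.986 CPM at 12 h (3.28 ± 0.30, adjusted p = 9.45e-06). In the scrambled line it averaged 0.401 CPM at 24 h and 2.08 CPM at 12 h, and the difference was 5.61 ± 0.51 (adjusted p = 5.95e-05). DDF1, a DREB-type factor that lowers gibberellin and raises stress tolerance, had 20.7, 25.6 and 16.4 CPM at 24 h and 4.30, 0.392 and 3.12 CPM at 12 h (3.0 ± 0.59, adjusted p = 0.00222), with a difference of 5.09 ± 0.96 (adjusted p = 0.00641). AT2G17660, of the RIN4 family, rose by 3.35 ± 0.36 and differed by 4.87 ± 0.57, and AT1G11210 rose by 2.75 ± 0.35 and differed by 4.52 ± 0.55. These 4 kept the call of the difference in all 19 alternatives. AT4G33905 differed by 4.25 ± 1.08 (adjusted p = 0.0281), a call lost without 12 h samples 1 or 2, 24 h samples 1 or 2, any scrambled 12 h sample or scrambled 24 h samples 1 or 2 (adjusted p up to 0.0689). GA2OX6, an enzyme that inactivates gibberellin, had 91.2, 120 and 56.1 CPM at 24 h and 25.1, 15.1 and 19.4 CPM at 12 h (2.17 ± 0.45, adjusted p = 0.00355), and its difference lost its call in 7 of 19 alternatives.

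Some genes moved in the scrambled line and not, or the other way, in the NAA50 line. AGP17, an arabinogalactan protein, had 17.5, 29.0 and 24.8 CPM at 24 h and 18.1, 24.9 and 20.6 CPM at 12 h (0.17 ± 0.38, adjusted p = 0.8), while in the scrambled line it averaged 93.4 CPM at 24 h and 7.28 CPM at 12 h (difference -3.52 ± 0.56, adjusted p = 0.00225). EXL5, an EXORDIUM-like wall protein, changed by 0.44 ± 0.43 (adjusted p = 0.507) and by 3.64 in the scrambled line (difference -3.20 ± 0.59, adjusted p = 0.00577). AT4G34760 (SAUR50), an auxin-inducible growth gene, and AT5G02760, a phosphatase of the PP2C family, fell in the NAA50 line (-1.48 ± 0.45 and -2.08 ± 0.66) and rose in the scrambled line, with differences of -3.06 ± 0.57 and -3.28 ± 0.73. In the NAA50 line AT4G34760 was not called without 12 h sample 2 or 24 h samples 1 or 3 or in the fit to the 6 NAA50 libraries (adjusted p up to 0.157), and AT5G02760 was not called without any 1 of the libraries but 24 h sample 3 (up to 0.125). PIRL8, a leucine-rich repeat protein, had 39.1, 45.2 and 39.0 CPM at 24 h and 152, 143 and 136 CPM at 12 h (-1.8 ± 0.22, adjusted p = 6.8e-05). It averaged 1.16 CPM at 0 h in that line and 0.539 and 0.187 CPM at 24 and 12 h in the scrambled line, so its difference (-3.31 ± 0.71) sets a well measured change against values near 3 counts, and it was not called without scrambled 24 h sample 3 (adjusted p = 0.0545).

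Single genes of defence and jasmonate also differed between the lines. Of 37 tested jasmonate genes the difference was called more positive in 1, which is not named here, and more negative in 1, JAR1. ORA47 below was named for its change in the scrambled line and is not a member of these counted lists. It was called more positive in 1 of 39 salicylic acid and systemic immunity genes and in 1 of 35 pattern-triggered immunity genes. Over all genes the shares were 4.43% more positive and 2.34% more negative. ORA47, an ERF factor of the jasmonate wound response, had 46.3, 29.0 and 33.2 CPM at 24 h and 93.7, 74.6 and 57.0 CPM at 12 h and did not pass (-1.06 ± 0.56, adjusted p = 0.199), while in the scrambled line it averaged 4.25 CPM at 24 h and 146 CPM at 12 h (difference 4.03 ± 0.85, adjusted p = 0.0122). NDR1, a membrane protein of disease resistance, had 65.8, 66.7 and 54.1 CPM at 24 h and 44.6, 33.3 and 34.6 CPM at 12 h (0.73 ± 0.19, adjusted p = 0.0133) and fell by 0.93 in the scrambled line (difference 1.66 ± 0.27, adjusted p = 0.00255). JAR1, which makes the active jasmonate, had 74.4, 76.1 and 87.2 CPM at 24 h and 144, 132 and 128 CPM at 12 h (-0.77 ± 0.13, adjusted p = 0.000611) and changed by 0.21 in the scrambled line (difference -0.98 ± 0.18, adjusted p = 0.00521). NDR1 lost its call in the NAA50 line without 12 h sample 2 (adjusted p = 0.0666).

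Markers of other leaf cell types moved little as lists. Over all genes 10.4% rose and 9.68% fell in the NAA50 line. Of 12 guard cell markers 1 rose and 2 fell, with changes from -1.20 to 0.89 and a median of -0.29. The highest change was that of the potassium channel KAT1, the marker that rose (0.89 ± 0.19). Their summed level was 83.9 to 97.0 CPM at 24 h and 90.0 to 107 CPM at 12 h. Of 11 phloem markers SUC2, the sucrose loader, rose by 0.72 ± 0.17 and the sugar exporter SWEET11 fell by 0.60 ± 0.12, and the summed level was 1133 to 1562 CPM at 24 h and 1115 to 1184 CPM at 12 h. Of 14 epidermis and trichome markers LTPG1, a lipid transfer protein of wax export, rose by 0.88 ± 0.26 and 2 fell, TRY (-2.04 ± 0.39) and MYB16 (a call lost in 6 of 14 alternatives, the replicate block among them), with a sum of 1502 to 2425 CPM at 24 h and 1189 to 1745 CPM at 12 h. LTPG1 lost its call without 12 h samples 1 or 3 or 24 h samples 1 or 2 (adjusted p up to 0.112). Of 2 tested root markers SCR fell (-1.05 ± 0.11) and SHR was not called. The summed level of the root list was lower at 24 h, with 48.62 to 61.15 CPM against 103.7 to 118.3 CPM at 12 h. The scrambled line also had a lower sum, with 52.02 to 64.16 CPM at 24 h and 83.97 to 94.74 CPM at 12 h.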

How the data were processed

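RNA of rosette leaves was sequenced from TruSeq Stranded mRNA libraries, per the labels' protocols. The authors deposited raw counts of reads per gene for 23790 genes in 18 libraries of 10389333 to 12353330 counts. The submitters' processing notes name Trimmomatic, STAR, DESeq2 and the TAIR10 build. They state no version, role, counting program or strand setting.

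Counts were tested in R 4.3.3 with the quasi-likelihood test of edgeR 4.0.16, with TMM scaling and its filter on low counts (minimum count 10, minimum total 15), which kept 18344 genes (77.1%). A model of 6 groups was fitted to all 18 libraries, with 12 residual degrees of freedom and a common biological coefficient of variation of 18.16%. The contrasts were 24 h against 12 h in the NAA50 line, the same in the scrambled line, and the difference between these changes. P-values were adjusted by Benjamini-Hochberg over all genes tested, and an SE is the log2 change divided by the square root of F. The procedure was tested on simulated data.

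By rule the named genes were NAA50, all tested clock list members and in each list at most 4 genes of lowest p. The rule also took the 10 largest called changes each way in the NAA50 line. It took the 5 largest each way for the difference and the 3 largest each way in the scrambled line. These had a mean log2 CPM of at least 1 and groups not overlapping. Members of the N-terminal acetyltransferase and marker lists could be named too, and not all of them were. Further genes, among them MCM2, BRCA1, GAUT12, RD22 and HTA9, were chosen after their values were seen. Members and lists were chosen with earlier results of these data known. Names, overlaps and promoters came from TAIR10.1, to which 23500 IDs (98.8%) matched. Near-identical copies were searched with BLAST 2.17.0 (95% identity over 50% of the length).

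Alternatives were DESeq2 1.42.0, RLE factors, plain library sizes, no filter on low counts, fits to fewer libraries, a replicate block and each library left out. Leaving out both NAA50 libraries numbered 3 was added after the data were seen.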

Additional observations from a re-analysis of the deposited data

Results flagged for a closer look

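The genes below are those named in the text or by the rule for named genes whose change between 12 and 24 h differed between the NAA50 line and the scrambled line by the test of the difference itself (edgeR, Benjamini-Hochberg adjustment over 18344 genes). Values are log2 differences, NAA50 line minus scrambled line. Of these 60 calls 30 held in all 19 alternatives, and for the other 30 the number of alternatives without the call is given.

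In replication, repair and histone genes the difference was 1.55 for PRL, 2.95 for BRCA1, 2.62 for BARD1 and 2.0 for HTA11. For the kinase CDC2 it was -0.56. The calls of PRL and BRCA1 were lost in 11 alternatives and that of CDC2 in 12, the replicate block among them for all 3. In secondary wall genes it was 2.2 for IRX1, 2.04 for CESA4, 2.11 for IRX3, 2.58 for GAUT12, 2.49 for IRX9, 1.42 for CTL2, 1.79 for FLA11 and 1.14 for MYB20. The calls of GAUT12 and IRX3 were lost in 8, that of CTL2 in 7 and that of IRX9 in 6 alternatives. The carboxypeptidase scpl48 differed by 2.38. In the phenylpropanoid and flavonoid list the difference was 1.58 for PAL1, 2.2 for PAL4, 0.89 for C4H, 1.45 for 4CL1, 1.35 for 4CL2 (lost in 13) and 1.33 for TT5 (lost in 7).

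In drought genes the difference was 2.3 for DREB2A, 1.28 for RD22, a dehydration-responsive gene, and 1.19 for GolS1, a galactinol synthase. The call of GolS1 was lost in 12 alternatives, plain library sizes among them, that of DREB2A in 9 and that of RD22 in 4. Without NAA50 24 h sample 2 or scrambled 24 h sample 2, 0 of the 22 ABA output genes differed between the lines. RD22 changed by 0.37 (adjusted p = 0.236) and GolS1 by -0.26 (adjusted p = 0.481) in the NAA50 line. SAG20 differed by 1.23, G18F by 0.71 (lost in 9) and TPS11, of the trehalose phosphate synthase family, by 0.99. TPS11 had 160, 162 and 204 CPM at 24 h and 62.2, 58.9 and 83.1 CPM at 12 h.

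In the clock the difference was 1.61 for RVE1, 0.45 for AT5G64170, 0.88 for AT3G12320 and 0.63 for PRR9, with calls lost in 12 alternatives for AT5G64170 and 6 for PRR9. In sulfur, one-carbon and nitrogen genes it was 0.95 for APR2, 0.83 for SHM7 and 0.70 for GSR2. Their calls were lost in 6, 9 and 10 alternatives, plain library sizes among them for SHM7 and GSR2. Among heat shock genes it was 0.85 for HSF1, 2.53 for HSFA2, 1.09 for HSFB2A, 1.45 for AT-HSFB2B, 1.15 for HSP81-2 and 1.05 for HSP81-3. The call of HSF1 was lost in 14 alternatives, DESeq2 and the replicate block among them, that of HSP81-2 in 11 and that of HSP81-3 in 2.

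Of the largest changes, the difference was 4.25 for AT4G33905, 2.93 for AT2G28140, 5.61 for RHA2B, 5.09 for DDF1, 4.87 for AT2G17660 and 4.52 for AT1G11210. It was -3.52 for AGP17, -3.31 for PIRL8, -3.28 for AT5G02760, -3.2 for EXL5 and -3.06 for AT4G34760. The call was lost in 9 alternatives for AT4G33905 and in 1 each for AT2G28140 and PIRL8. The ERF-family genes ORA47 and AT5G21960 differed by 4.03 and 3.68, the second lost in 7.

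In defence and hormone genes the difference was 1.66 for NDR1, -0.98 for JAR1, 2.51 for GA2OX6, 1.58 for RGL1, a DELLA repressor of gibberellin responses, and 1.25 for ARR7, a type-A cytokinin regulator. GSTU26, a glutathione transferase, differed by 2.123, and the wax export genes LTPG1 and ABCG12 by 1.57 and 1.69. Calls were lost in 7 alternatives for GA2OX6, 5 for RGL1, 4 for ARR7 and LTPG1 and 1 for GSTU26.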

How the results depend on the processing

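Of 206 named genes, 201 kept direction and call in the NAA50 line with DESeq2, 204 with RLE factors, 196 with plain library sizes, 170 without both NAA50 libraries numbered 3 and 162 to 184 with 1 library left out. Of 60 named differences between the lines, 59 kept their call with DESeq2, 51 with plain library sizes and 44 without both libraries numbered 3. With 1 library left out 33 to 57 did, the fewest without scrambled 12 h sample 1 (33), NAA50 24 h sample 2 (37), scrambled 24 h sample 1 (39) and NAA50 12 h sample 3 (40). In all 19 alternatives 30 of the 60 kept it. The genes more negative in the NAA50 line than in the scrambled line numbered 701 with DESeq2 and 1075 with plain library sizes, against 429, and the cause was not tested. With 1 library left out, the calls in 1 direction ran from 976 to 1730 in the NAA50 line, from 194 to 1038 for the difference and from 1388 to 3599 in the scrambled line. In the NAA50 line the higher and lower calls were 1185 and 1025 without 12 h sample 1, 1135 and 976 without 12 h sample 2, and 1321 and 1069 without 24 h sample 1. For the difference, the fewest calls, 409 and 194, came without scrambled 12 h sample 1. Fewer samples stand behind each of these fits.

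Same-numbered samples of the NAA50 line at 24 and 12 h deviated together with r = 0.0193, 0.2002 and 0.196, and those of the scrambled line with r = -0.105, -0.211 and -0.368, so the numbers were not taken to pair the samples. With the replicate block 1821 genes were higher and 1652 lower in the NAA50 line, 2549 and 2818 in the scrambled line, and 733 and 372 for the difference, and 198 of the 206 and 56 of the 60 named results kept their call.

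The changes that turned sign were those of NAA50 (-0.373 to 0.118 with 1 library left out), AUR1 (-0.359 to 0.0763), LKP2 (-0.0462 to 0.0766, -0.0483 with plain library sizes and -0.0424 without both libraries numbered 3) and TCP11 (-0.173 to 0.466 and -0.0592). AT1G50040 ran from -0.871 to 2.95 and AT4G16563 from -0.704 to 1.18, with -1.22 and -1.12 without both libraries numbered 3. HSFA2 ran from -0.471 to 0.185, HSP81-2 from -0.222 to 0.131 and HSP81-3 from -0.146 to 0.181, with 0.241, 0.184 and 0.212 without both, and MC9 ran from -0.118 to 0.543 and RNS3 from -0.471 to 0.237. In the NAA50 line the adjusted p of all 11 genes was over 0.05 in the fit to 18 libraries, and the cause was not tested. A level of 0 allows up to 0.224 to 0.295 CPM, so a change between levels below that is not detectable at this depth.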

Other observations

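Some single genes of jasmonate, sugar and protein folding lists were called in the NAA50 line. MYC4, a transcription factor of jasmonate responses, had 8.65, 8.42 and 12.5 CPM at 24 h and 30.2, 32.01 and 24.15 CPM at 12 h (-1.54 ± 0.16, edgeR adjusted p = 1.7e-05). COI1, the jasmonate receptor, had 52.6, 47.9 and 51.6 CPM at 24 h and 74.8, 72.6 and 72.5 CPM at 12 h (-0.53 ± 0.09, adjusted p = 0.00054). For both genes the 24 h libraries lay below every 12 h library.

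DIN9 had 2.36, 2.93 and 4.32 CPM at 24 h and 12.12, 13.5 and 10.4 CPM at 12 h (-1.88 ± 0.21, adjusted p = 3.3e-05). ISA3, a debranching enzyme of starch breakdown, had 86.3, 68.9 and 71.1 CPM at 24 h and 43.9, 35.1 and 41.0 CPM at 12 h (0.91 ± 0.16, adjusted p = 0.0010). BZIP28, a membrane-bound transcription factor of the unfolded protein response, had 95.3, 89.2 and 74.4 CPM at 24 h and 58.9, 51.4 and 56.5 CPM at 12 h (0.63 ± 0.12, adjusted p = 0.0017). DIN9 fell, and ISA3 and BZIP28 rose, with no overlap between the times. The calls of these 5 genes were kept in all 14 alternatives.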
